A study of Mus musculus with 30 samples.

Results

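The muscularis externa (*ME*), the muscle layer of the gut wall with its nerve plexus, was compared between the first and the third day after intestinal manipulation (IM), the abdominal surgery model of postoperative ileus. All libraries of total *ME* RNA labelled IM24h (n = 4) or IM72h (n = 4) were taken, which is 8 of the 30 samples of the series. The question was which RNAs of the whole tissue rose or fell from 24 to 72 hours after surgery, that is, from the manifest inflammation of the muscle towards its resolution. The other samples hold total *ME* RNA of naïve mice (n = 3) and of mice at IM3h (n = 3), and RNA pulled down on tagged ribosomes of enteric glia (RiboTag).

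Mice of both time points carried the same alleles, Tg(Sox10-icre/ERT2)388Wdr/J, a tamoxifen-inducible Cre driven by *Sox10* regulatory sequence, and B6N.129 Rpl22tm1.1Psam/J, the Cre-dependent tagged ribosomal protein. By the study's methods the animals were adult males that received tamoxifen before surgery, and the line's description there adds a Cre-dependent tdTomato reporter. IM consisted of rolling the small bowel with moist swabs under anaesthesia, and the *ME* was then peeled from the mucosa. The libraries analysed here come from the lysate before any pull-down, so the Cre line selects no cell type in them. Naïve and IM3h mice are labelled with another driver (Gfap-cre), hence their levels stand beside those of IM24h and IM72h as a description with no test. The study lysed the *ME* of each mouse and counts its replicates in mice, although no label names the animal behind a library, so a p-value covers the spread between these libraries.

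As background, handling of the bowel wall activates its resident macrophages, chemokines draw neutrophils and monocytes into the muscle, and mediators of the infiltrate suppress contraction. The infiltrate is later cleared while monocyte-derived cells adopt features of tissue macrophages. Smooth muscle of the gut and its fibroblasts, glia and endothelium can divide after injury and lay down matrix. In RNA of a whole tissue, fewer cells of a type and less RNA per cell cannot be told apart.

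The libraries of the time points differed in ways that touch most results. Totals were 6919913 to 8537035 estimated counts at IM24h and 9779868 to 12866062 at IM72h, and with 4 libraries a group an exact two-sided permutation test cannot go below p = 0.0286, the value it gave for totals (adjusted over 8 measures, 0.0381). The same p was found for the share of counts from mitochondrially encoded genes (10.03 to 14.18% at IM24h, 6.132 to 9.074% at IM72h), of which the mitochondrial rRNAs *mt-Rnr1* and *mt-Rnr2* took 4.024 to 7.437% and 0.4408 to 0.6115% of counts, a larger fall than that of the whole share. Protein-coding genes whose longest transcript had a low GC content were mostly lower at IM72h and those with a high GC content mostly higher. With these genes cut into 5 groups of like size by GC content, 9.43% of 2726 genes of the lowest group (30.96 to 43.79% GC) were called higher and 33.9% lower, against 33.5% and 5.76% of 2724 genes of the highest (55.49 to 74.2% GC). Long transcripts were also more often lower (29.9% of the longest of 5 groups, 12.7% of the shortest). The number part of the library names runs in separate ranges at the time points, the range of IM24h being that of the RiboTag libraries, so a difference in preparation or sequencing run and the difference in time cannot be told apart. For that reason the lists below are also given after the counts of each library were corrected for GC content and transcript length, an alternative added after these values were seen. IM24h libraries 2 and 4 stood farthest from each other on the second principal component (-71 and 86.45, 18% of the variance), and the median within-group SD was 0.41 log2 units at IM24h and 0.21 at IM72h.

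**Figure D1:**
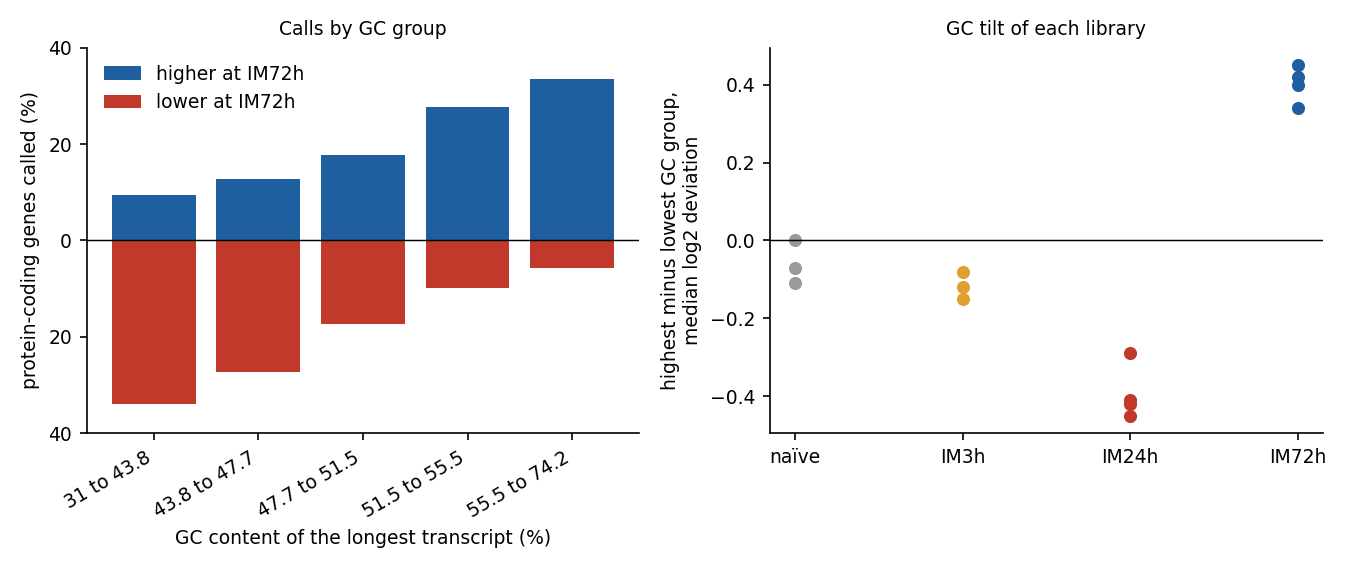
Left, the share of protein-coding genes called higher (above 0) or lower (below 0) at IM72h than at IM24h, in 5 groups by GC content of the longest transcript. Right, each library's GC tilt, which is the median log2 deviation from the gene's mean in the highest GC group minus that in the lowest; IM24h libraries lie between -0.45 and -0.29, IM72h libraries between 0.34 and 0.45, and the naïve and IM3h libraries between -0.15 and 0.

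Of 16281 genes tested, 3024 (18.6%) were higher and 3248 (19.9%) were lower at IM72h at an edgeR adjusted p under 0.05, with a median log2 fold change of 0.01 over all genes. With a change over 2-fold also required the shares were 11% and 11.4%, and at an unadjusted p under 0.05 with that fold 12.7% and 12.5%. In 20.6% of genes each IM72h library was above each IM24h library and in 18.5% below, which is the background for groups that do not overlap. The first pair of shares is the background for the lists below, each a set of genes with a shared role or cell type, described by its counts and median; a listed gene with too few counts to test is left out of the count. The first principal component took 53.9% of the variance and separated the time points (-86.36 to -48.4 at IM24h, 66.1 to 76.42 at IM72h). Scaling set the balance of the calls: with *Actb*, *Hsp90ab1* and *Rplp1* as reference genes the median over all genes was -0.22 and 69.7% of calls were lower, with unscaled counts it was 0.46 and 19.7% were lower, and as reported here 51.8% were lower. Alternative fits were followed for the genes named and part of those drawn for naming. Of 136 such genes with a call, 27 lost it with the reference genes and 19 lost it unscaled at an unchanged sign. *Fbl*, which is not among those 19, changed sign unscaled (0.04). Levels are given in CPM, counts per 1000000 after TMM scaling, for the libraries 1 to 4 of each group in turn. TMM factors were 0.974 to 1.04 at IM24h and IM72h but 0.542 to 0.709 in naïve and IM3h libraries, which raises CPM of the latter over library totals. Genes of rRNA-like RNA took 16.13 to 33.5% of counts in naïve and IM3h libraries and 1.329 to 6.504% at IM24h and IM72h. Comparisons with naïve and IM3h levels below rest on this scaling and were not tested.

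**Figure D2:**
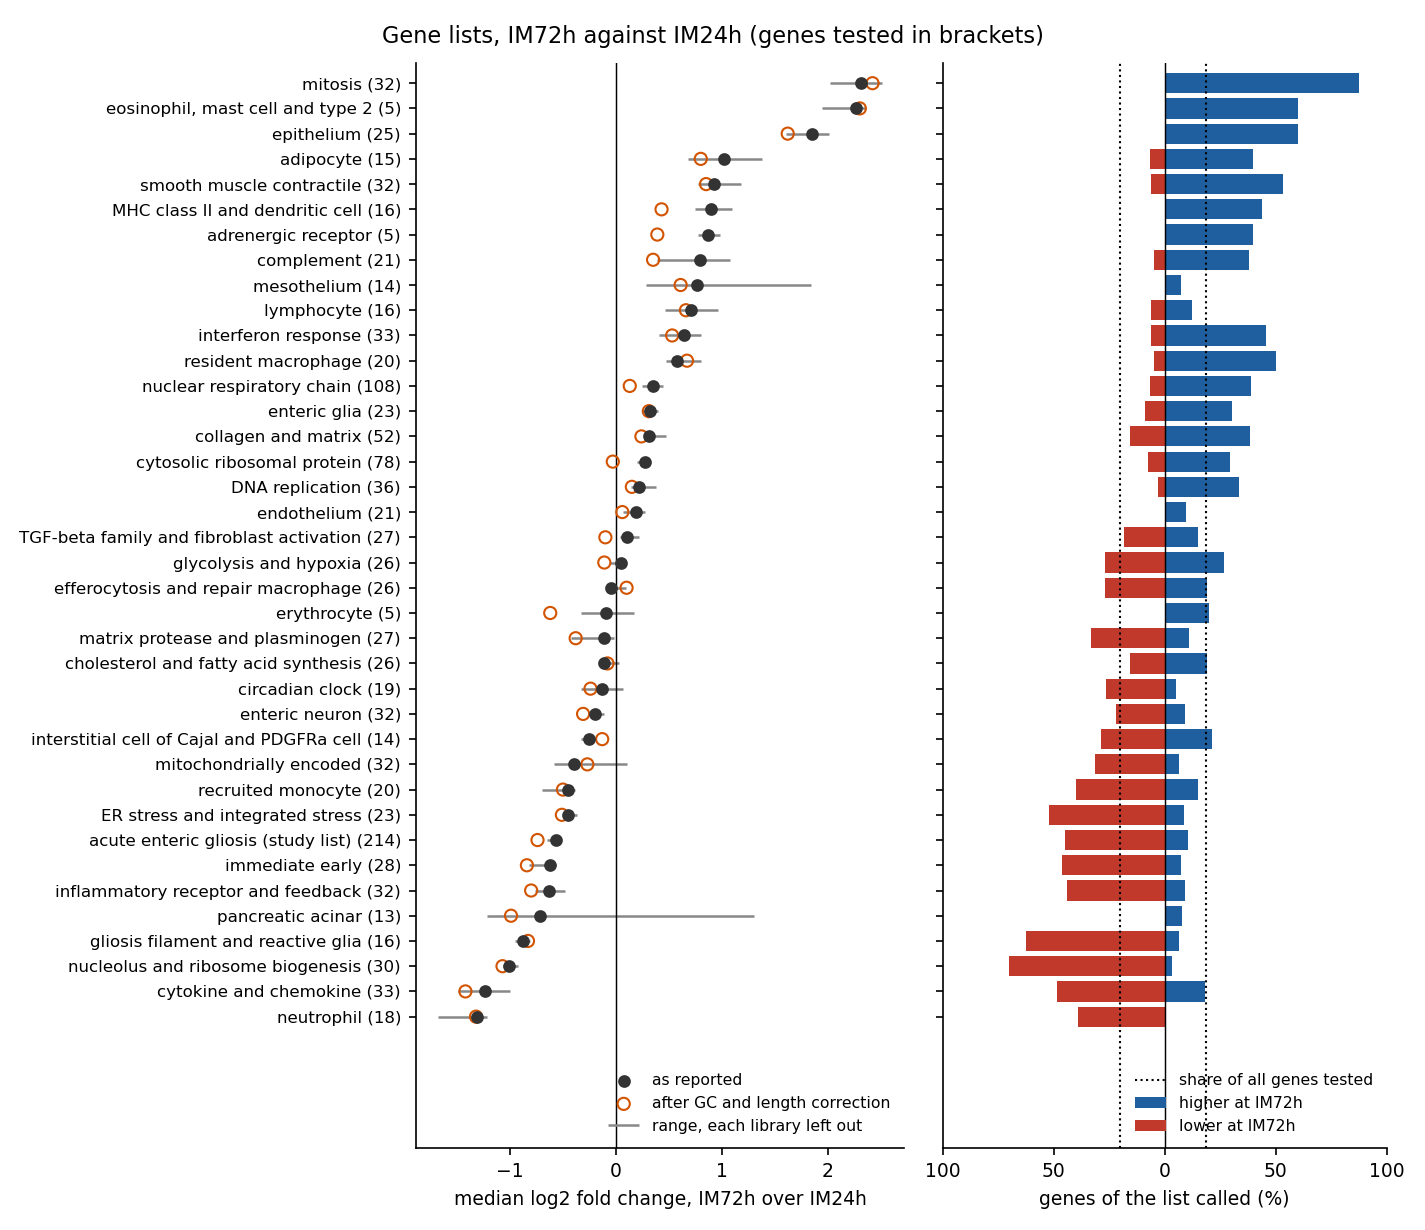
Left, the median log2 fold change (IM72h over IM24h) of each gene list with at least 5 genes tested, as reported (filled), after the GC and length correction (open) and as the range with each library left out (line). Right, the percentage of its genes called higher or lower; dotted lines mark the 18.6% and 19.9% of all genes tested. The mitosis list lies at 2.31 and the neutrophil list at -1.31.

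Most genes of mitosis were higher at IM72h. Of 32 tested, 28 rose and none fell, and the median log2 fold change was 2.31 (2.42 after the GC and length correction, 1.98 with the reference genes and 2.76 unscaled). Summed over the list, levels were 265, 178, 303 and 391.7 CPM at IM24h and 1506, 1242, 1110 and 1338 CPM at IM72h, with 74.3 to 127 CPM in naïve and 116 to 121 CPM in IM3h libraries. Every IM72h library thus lay above every other library of total *ME* RNA.

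*Mki67*, the proliferation antigen Ki-67, was measured at 13.6, 6.45, 9.9 and 9.9 CPM at IM24h and 84.5, 58.3, 68.5 and 87.9 CPM at IM72h. The groups did not overlap, and IM24h library 2 was lowest (log2 fold change 2.90, SE 0.23, edgeR adjusted p = 1.98e-05, 7.48-fold). *Top2a*, the topoisomerase that untangles sister chromatids, stood at 41.1, 29.4, 46.5 and 62.7 CPM at IM24h and 160.1, 144, 124 and 145 CPM at IM72h (log2 fold change 1.67, SE 0.21, edgeR adjusted p = 1.86e-04). *Cdk1*, the kinase that drives entry into mitosis, stood at 9.63, 8.1, 4.83 and 15.3 CPM at IM24h and 23.3, 30.6, 28.3 and 36.6 CPM at IM72h (log2 fold change 1.65, SE 0.31, edgeR adjusted p = 0.0017; adjusted p = 0.0713 with the reference genes). For both genes each IM72h library exceeded each IM24h library. The largest changes of the list were those of *Plk1* (polo-like kinase), *Birc5* (survivin) and *Ccnb1* (cyclin B1). *Plk1* rose from 6.57, 0.253, 3.18 and 4.45 CPM to 85.9, 60.8, 69.4 and 89.3 CPM (log2 fold change 4.39, SE 0.50, edgeR adjusted p = 1.16e-04). *Birc5* rose by 4.03 and *Ccnb1* by 3.62 on the log2 scale, again with no overlap. Outside the list, the mitotic kinesin *Kif14* (0.227, 1.39, 0.707 and 0.143 CPM, then 14.7, 12.9, 15 and 16.6 CPM) and the helicase *Pif1* were among the 8 largest rises of all genes. *Pif1* had at most 3 counts in each IM24h library and was at least 42.3-fold higher at IM72h. Both *Kif14* and *Pif1* passed the filter through IM72h, where they are high, so their values are a description.

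Promoters of these genes are shown since cell cycle classes are known for different sequence elements in them. Late cell cycle genes are known for the CHR element with CCAAT boxes, and genes of DNA replication for E2F sites. RefSeq promoters (GRCm38.p6, the mm10 build, from 250 bases before the start to 50 after it) were searched on both strands for TTTGAA (CHR), CCAAT, and TTCCCGC or TTGGCGC (E2F core), which can share bases with a CCAAT box; capitals mark matches. Lines give the 250 bases that end just before the start, 5′ to 3′ on the gene's strand, of *Mki67* (chr7:135716380-135716629, minus strand), *Top2a* (chr11:99024190-99024439, minus), *Cdk1* (chr10:69352913-69353162, minus) and, for DNA replication, *Pola1* (chrX:93632156-93632405, minus), which was the 1 gene of its list called lower.
Mki67: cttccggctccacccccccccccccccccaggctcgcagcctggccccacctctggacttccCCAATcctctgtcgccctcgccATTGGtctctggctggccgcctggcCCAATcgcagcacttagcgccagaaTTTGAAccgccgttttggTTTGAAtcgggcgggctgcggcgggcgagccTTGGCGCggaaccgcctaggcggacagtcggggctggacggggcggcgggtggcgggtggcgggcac
Top2a: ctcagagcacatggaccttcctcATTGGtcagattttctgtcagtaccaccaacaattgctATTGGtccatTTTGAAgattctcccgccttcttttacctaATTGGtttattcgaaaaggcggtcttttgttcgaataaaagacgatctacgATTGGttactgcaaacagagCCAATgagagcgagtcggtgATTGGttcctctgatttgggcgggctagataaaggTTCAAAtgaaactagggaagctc
Cdk1: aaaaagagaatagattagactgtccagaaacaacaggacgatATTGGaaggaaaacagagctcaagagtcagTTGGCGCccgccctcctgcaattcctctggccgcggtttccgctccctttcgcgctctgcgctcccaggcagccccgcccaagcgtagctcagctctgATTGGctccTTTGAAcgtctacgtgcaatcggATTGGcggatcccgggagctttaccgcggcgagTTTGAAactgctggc
Pola1: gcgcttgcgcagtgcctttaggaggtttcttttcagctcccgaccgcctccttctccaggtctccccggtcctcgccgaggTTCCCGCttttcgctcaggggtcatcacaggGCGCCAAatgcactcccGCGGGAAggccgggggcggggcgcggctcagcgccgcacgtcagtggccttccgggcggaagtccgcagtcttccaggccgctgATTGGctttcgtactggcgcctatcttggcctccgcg

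Over the lists, the CHR letters occurred in 20 of 27 mitosis promoters (74.1%), against 14.5% of 11275 promoters of genes tested and 20.2% of all 27025 promoters. At least 2 CCAAT boxes were present in 15 of 27 (55.6%), against 16.2% and 13.3%, and also in 11 of 30 promoters of DNA replication genes (36.7%). The E2F core was present in 17 of 30 promoters of DNA replication genes (56.7%), against 13.4% of genes tested, 7.79% of all and 4 of 27 mitosis promoters. A match of letters is a description and no evidence of binding.

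Genes of DNA replication had a lower median than those of mitosis, a difference that was not tested. Of 36 tested (37 listed), 12 rose and 1 fell (33.3% and 2.78%; 5 higher and 0 lower with the reference genes, 16 and 0 unscaled), with a median of 0.22 (0.15 after the GC and length correction, 0.00 with the reference genes). The median was 0.14 and 3 genes were lower without IM24h library 2, and the median was 0.38 without IM24h library 1. The list's summed level was 694, 593, 743 and 629.6 CPM at IM24h and 983, 854, 813 and 985 CPM at IM72h, while naïve libraries held 255 to 275 CPM and IM3h libraries 346 to 403 CPM. At IM24h the sum therefore already stood above every naïve and IM3h library. The rises were led by enzymes of nucleotide supply and strand joining, namely *Tk1* (thymidine kinase; 11, 9.11, 14.8 and 13.8 CPM at IM24h and 47.7, 67.2, 45.7 and 59.5 CPM at IM72h; log2 fold change 2.18, SE 0.20, edgeR adjusted p = 3.75e-05), *Lig1* (DNA ligase; log2 fold change 1.81) and *Rrm2* (ribonucleotide reductase; 1.59), none of which overlapped between groups. Components of the replicative helicase and clamp did not pass: *Mcm2* had a log2 fold change of 0.40 (edgeR adjusted p = 0.133), *Mcm3* of 0.09 (0.809) and *Pcna*, the sliding clamp, of -0.45 (0.062). *Mcm2* was at 28.4, 25.9, 36.1 and 23.8 CPM at IM24h and 49.8, 30.6, 32.7 and 37.9 CPM at IM72h, with 5.34, 5.07 and 4.95 CPM in naïve libraries. *Pola1*, the polymerase that starts each strand, was the 1 gene called lower (-0.62, adjusted p = 0.0297), a call lost without 1 library (adjusted p up to 0.105) and after the GC and length correction (0.365).

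Most markers of gut epithelium, which renews constantly and can stay attached when the *ME* is peeled, were also higher at IM72h. Of 25 tested, 15 rose and none fell (median 1.85, 1.62 after the GC and length correction, 1.54 with the reference genes). Their sum was 1159, 517, 682 and 1393 CPM at IM24h and 1419, 2451, 3328 and 2347 CPM at IM72h. The groups did not overlap in that sum, and the part of attached epithelium in the mitosis counts was not tested. Within IM72h the order of the libraries was the reverse of that of the mitosis sums. Library 1 had the lowest epithelium and the highest mitosis sum (1419 and 1506 CPM), library 3 the highest and the lowest (3328 and 1110 CPM). IM3h library 2, with 5846 CPM of epithelium genes, held 121 CPM of mitosis genes. Naïve libraries, from mice labelled with another driver, held 676, 1807 and 2490 CPM and IM3h libraries 2429, 5846 and 1118 CPM, on both sides of the IM72h range. *Epcam*, the epithelial adhesion molecule, was at 14.5, 11.9, 10.02 and 16.1 CPM at IM24h and 32.6, 57.9, 67.7 and 36.2 CPM at IM72h (log2 fold change 1.89, SE 0.26, edgeR adjusted p = 3.27e-04), while naïve libraries held 17.4, 54.5 and 62.7 CPM. *Apoa1*, an apolipoprotein of enterocytes, rose by 2.81. *Vil1* and *Fabp2*, brush border villin and the intestinal fatty acid binding protein, did not pass (adjusted p = 0.0635 and 0.0553). Among the smallest p-values of all genes were *Rbp2*, a retinol carrier of enterocytes (3.4, 3.29, 2.12 and 1.58 CPM at IM24h and 54.7, 68.6, 111 and 91.4 CPM at IM72h; log2 fold change 4.95, SE 0.31, edgeR adjusted p = 9.10e-06), and *Lct*, the lactase gene (3.23), and both were also above their naïve levels (2.29, 6.67 and 10.8 CPM and 6.56, 11.2 and 21 CPM). The immunoglobulin gene *Igha* of mucosal plasma cells rose in the same libraries (46.4, 19.6, 32.2 and 97.8 CPM at IM24h and 160.2, 213, 469 and 305 CPM at IM72h; 2.55).

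**Figure D3:**
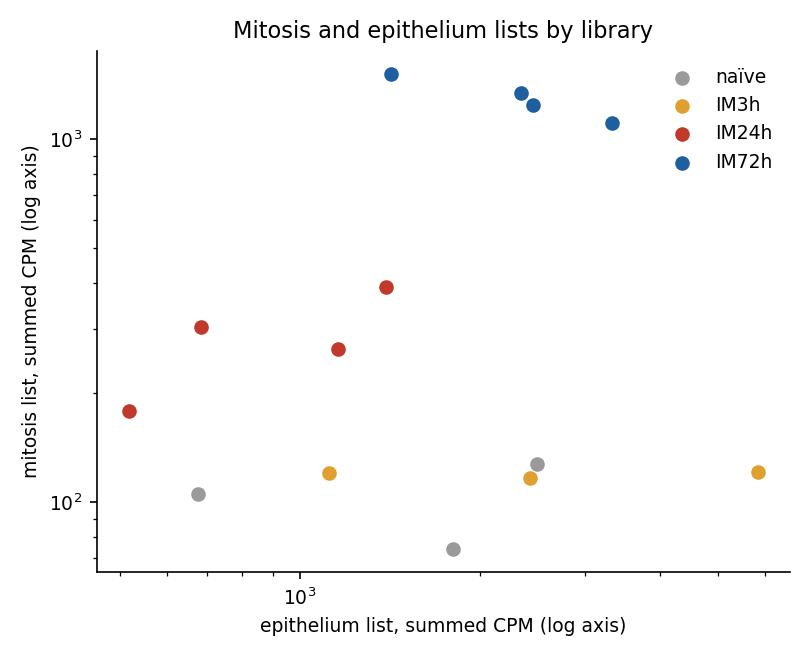
Each point is 1 library of total *ME* RNA, with the summed CPM of the epithelium list on the x axis and of the mitosis list on the y axis (both log axes). IM72h libraries lie at 1419 to 3328 CPM of epithelium and 1110 to 1506 CPM of mitosis genes and IM24h libraries at 517 to 1393 and 178 to 391.7 CPM; the naïve and IM3h libraries, of another driver, have 74.3 to 127 CPM of mitosis genes.

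Contractile genes of smooth muscle had their lowest summed levels at IM24h. Of 32 tested, 17 rose and 2 fell (8 higher and 2 lower with the reference genes, 25 and 0 unscaled), with a median of 0.92 (0.85 after the GC and length correction, 0.61 with the reference genes, 1.47 unscaled). Summed levels were 25830, 19910, 40220 and 41760 CPM at IM24h and 66800, 89170, 75820 and 74310 CPM at IM72h, beside 81210 to 97930 CPM at IM3h and 103500 to 110400 CPM in naïve libraries. The time points did not overlap. On this scaling each IM72h library stayed below the lowest naïve library, a comparison that was not made on library totals.

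*Mylk*, the myosin light chain kinase that switches on contraction, was measured at 2829, 2131, 4102 and 5288 CPM at IM24h and 11629, 16049, 14783 and 15582 CPM at IM72h (log2 fold change 2.02, SE 0.27, edgeR adjusted p = 2.66e-04). Each IM72h library held more than each IM24h library, and the naïve libraries held 23378, 16404 and 21931 CPM. *Hspb6*, a small heat shock protein tied to muscle relaxation, rose by 2.36, and the creatine kinases *Ckb* and *Ckm*, which buffer ATP, rose by 2.23 and 2.53. *Ckb* stood at 220.3, 303, 618 and 488 CPM at IM24h and 2327, 1427, 2130.1 and 1733 CPM at IM72h, where the naïve range was 2187 to 2791 CPM. The actins changed less. *Acta2* was at 2552, 1755, 4551 and 4938 CPM at IM24h and 6283, 9581, 6752 and 6884 CPM at IM72h (log2 fold change 1.1, SE 0.31, edgeR adjusted p = 0.0156), a call missed without IM24h library 1 (adjusted p = 0.0524) and with the reference genes (0.227). *Actg2*, the enteric actin, reached 1.51 with adjusted p = 0.045, a call lost without 1 library (up to 0.118), after the GC and length correction (0.086) and with the reference genes (0.265). *Myh11*, the smooth muscle myosin heavy chain, was at 1659, 987, 2216 and 2956 CPM at IM24h and 1702, 3594, 2245 and 2322 CPM at IM72h, with overlapping groups (log2 fold change 0.34, SE 0.32, edgeR adjusted p = 0.437). *Cacna1c*, the L-type calcium channel, fell by 0.65 on the log2 scale, and leaving out 1 library raised its adjusted p to as much as 0.0506 (unscaled, 0.557).

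Markers of interstitial cells, the pacemaker cells of Cajal and the PDGFRα cells that relay nerve signals to muscle, were called about as often as genes in general. Of 14 tested, 3 rose and 4 fell (21.4% and 28.6%; 1 higher and 2 lower with the reference genes, 4 and 0 unscaled), with a median of -0.25 (-0.13 after the GC and length correction with 2 higher and 3 lower, and 0.20 unscaled). Without IM72h library 1 or 3 only 1 was lower, without IM72h library 4 there were 2, and without IM24h library 4 there were 5 higher. The genes called higher were *Adgrd1*, an adhesion receptor, *Prkcq*, a protein kinase C, and the thrombospondin *Thbs4*, all with no overlap between groups. *Adgrd1* was at 81.1, 137, 158 and 128 CPM at IM24h and 327, 239, 322 and 303 CPM at IM72h (log2 fold change 1.24, SE 0.20, edgeR adjusted p = 8.23e-04), *Prkcq* rose by 1.03 (adjusted p = 0.081 with the reference genes) and *Thbs4* by 1.13 (adjusted p = 0.0283, up to 0.078 without 1 library and 0.0905 after the correction). *Kit*, the receptor that marks the pacemaker cells, and *Ano1*, their chloride channel, were among the 4 lower genes (-0.64 and -1.13), both with overlapping groups and adjusted p up to 0.0735 and 0.0655 without 1 library. Both calls were also lost unscaled, and that of *Ano1* with the reference genes (adjusted p up to 0.5 and 0.135 over the alternatives run). *Ano1* was at 101, 54.7, 101 and 233 CPM at IM24h and 48.1, 61.4, 59.4 and 54.7 CPM at IM72h, so IM24h library 4 held the highest level. *Etv1*, their transcription factor, had a log2 fold change of -0.82 (adjusted p = 0.00131, and 0.0829 after the GC and length correction), and *Pdgfra* did not pass (-0.25, adjusted p = 0.12).

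Neutrophil markers had a lower summed level at IM72h, although 11 of the 18 tested were not called. Of 18 tested (24 listed), 7 fell and none rose, with a median of -1.31 (-1.32 after the GC and length correction, -1.54 with the reference genes, -0.88 unscaled). Their sum was 752, 586, 271 and 465 CPM at IM24h and 246, 199, 200.6 and 188 CPM at IM72h, which left the IM72h libraries near the 161 to 244 CPM of naïve mice. *S100a8* and *S100a9*, subunits of the calprotectin of neutrophil granules, were both lower. *S100a8* was at 73.1, 44.5, 12.4 and 17.8 CPM at IM24h and 11.3, 5.11, 3.87 and 3.93 CPM at IM72h (log2 fold change -2.62, SE 0.56, edgeR adjusted p = 0.00395). *Cxcr2*, the receptor that guides neutrophils along chemokines, was at 21.6, 20.5, 3.65 and 3.44 CPM at IM24h and 2.78, 1.28, 1.57 and 1.01 CPM at IM72h (log2 fold change -2.90, SE 0.66, edgeR adjusted p = 0.00571). For these genes the spread was widest at IM24h, where libraries 1 and 2 were high. *Csf3r*, the receptor for the neutrophil growth factor, did not pass (-1.06, adjusted p = 0.234).

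Markers of recruited monocytes were divided. Of 20 tested, 8 fell and 3 rose (0 higher and 6 lower with the reference genes, 5 and 4 unscaled; median -0.45, -0.50 after the GC and length correction with 7 lower and 3 higher, but 0.05 unscaled); 1 was higher without IM24h library 1 or IM72h library 2. *Ccr2*, the receptor by which monocytes enter tissue, was at 169, 173, 173 and 168 CPM at IM24h and 88.9, 85.3, 99.03 and 104 CPM at IM72h (log2 fold change -0.86, SE 0.12, edgeR adjusted p = 3.60e-04). The spread within each group was small, and naïve libraries held 13.7, 13.9 and 11.7 CPM, so *Ccr2* at IM72h was lower than at IM24h and still above the naïve level; unscaled, its adjusted p was 0.0743. *Chil3*, a lectin of activated monocytes, fell 12.2-fold from 24.3, 6.83, 12.1 and 35.1 CPM to 1.34, 2.16, 0.829 and 2.01 CPM (log2 fold change -3.61, SE 0.53, edgeR adjusted p = 4.20e-04). The coagulation factor *F10* (-1.62) and the matrix protein *Thbs1* (-2.52) fell as well. *Ly6c2* and *Plac8* did not pass (adjusted p = 0.629 and 0.296). *Msrb1*, a selenoprotein that repairs oxidised methionine, and the Fc receptor *Fcgr1* were higher (1.40 and 0.76). Both calls were lost with the reference genes (adjusted p = 0.0747 for *Msrb1*). That of *Fcgr1* was also lost after the GC and length correction (0.0919) and without IM24h library 1 or 2 or IM72h library 2 or 4 (up to 0.0848).

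Markers of tissue-resident macrophages had a higher summed level at IM72h, although 9 of the 20 tested were not called. Of 20 tested (22 listed), 10 rose and 1 fell, with a median of 0.58 (0.67 after the GC and length correction), and with the reference genes 2 rose and none fell at a median of 0.36, against 15 and none unscaled. Summed levels were 1573, 1425, 1502 and 1791 CPM and 2913, 2531, 2908 and 3051 CPM, above the 776 to 852 CPM of naïve libraries at both time points. *Cx3cr1*, the fractalkine receptor of macrophages that lie along enteric nerves, was at 28.7, 27.7, 25.5 and 48.5 CPM at IM24h and 85.3, 86.4, 95.7 and 88 CPM at IM72h (log2 fold change 1.45, SE 0.20, edgeR adjusted p = 3.11e-04; 0.0548 with the reference genes). It had been 5.63, 6.18 and 6.01 CPM at IM3h and 24.7, 31.5 and 23.3 CPM in naïve libraries. *C1qa* and *C1qb*, subunits of the complement starter C1q that macrophages secrete, were likewise higher. *C1qb* stood at 93.4, 44, 89.8 and 126 CPM at IM24h and 407, 479, 450.4 and 481 CPM at IM72h (log2 fold change 2.36, SE 0.27, edgeR adjusted p = 1.02e-04), and *C1qa* rose by 1.69. *Mrc1*, the mannose receptor, overlapped between groups (0.70, adjusted p = 0.037, up to 0.113 without 1 library and 0.312 with the reference genes), and *Cd163*, a haemoglobin scavenger receptor, did not pass (0.45, adjusted p = 0.286). The platelet chemokine gene *Pf4* was the 1 gene called lower (-0.73); its IM24h library 1 held 208 CPM against 105 to 108 CPM in the others, and the call was lost without 1 library (adjusted p up to 0.0969).

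Genes of efferocytosis, the uptake of dying cells, and of repair macrophages were called about as often as genes in general. Of 26 tested, 5 rose and 7 fell (19.2% and 26.9%; 3 higher and 6 lower with the reference genes, 9 and 4 unscaled), with a median of -0.05 (0.10 after the GC and length correction). *Spp1*, osteopontin, fell by 2.30 and *Fabp5*, a lipid carrier, by 1.51 on the log2 scale. *Apoe*, the lipid exporter of phagocytes that have taken up debris, moved the opposite way, from 252, 221, 276 and 519 CPM to 2069, 2444, 2404 and 2377 CPM (log2 fold change 2.87, SE 0.26, edgeR adjusted p = 3.44e-05, 7.33-fold). *Mertk*, a receptor for dying cells, rose by 1.04 (adjusted p = 0.0138, but 0.17 with the reference genes), whereas its relative *Axl* (-0.27, adjusted p = 0.471) and the lipid receptor *Trem2* (0.62, adjusted p = 0.39) did not pass. Without IM24h library 4 the count of higher genes was 10 and the median 0.09.

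Genes of antigen presentation on MHC class II had a higher summed level at IM72h, although 9 of the 16 tested were not called. Of 16 genes tested (19 listed), among them dendritic cell markers, 7 rose and none fell (4 higher and 0 lower with the reference genes, 8 and 0 unscaled), at a median of 0.90 (0.43 after the GC and length correction, with 5 higher). *Cd74*, the invariant chain, was at 199.6, 133, 173 and 164 CPM at IM24h and 629, 963, 839 and 641 CPM at IM72h (log2 fold change 2.20, SE 0.19, edgeR adjusted p = 2.73e-05). *H2-Ab1* and *H2-Aa*, class II chains, rose by 2.06 and 1.60, and none of these 3 genes overlapped between groups. The chain gene *H2-Eb1* did not pass (0.60, adjusted p = 0.356). Over the list, sums were 883, 583, 823 and 1022 CPM and 2010, 2882, 2901 and 2274 CPM, with 499 to 568 CPM in naïve libraries.

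The complement list held 8 higher and 1 lower of 21 genes tested (22 listed; 3 higher and 0 lower with the reference genes, 11 and 0 unscaled; median 0.79), against 4 higher and none lower after the GC and length correction (median 0.35). The median was 0.39 without IM24h library 2 and 0.5 without IM24h library 1. Beside the C1q genes, *C4b*, which C1 cleaves, was at 16.3, 25.1, 35.9 and 95.7 CPM at IM24h and 146, 153, 163 and 145 CPM at IM72h (log2 fold change 1.82, SE 0.44, edgeR adjusted p = 0.00739; 0.129 with the reference genes). *C3*, the common factor, overlapped between groups because IM24h library 4 held 375 CPM against 140 to 158 CPM in the others (0.91, adjusted p = 0.0306). The call of *C3* was lost without 1 library (adjusted p up to 0.0879), after the correction (0.0814) and with the reference genes (0.476).

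**Figure D4:**
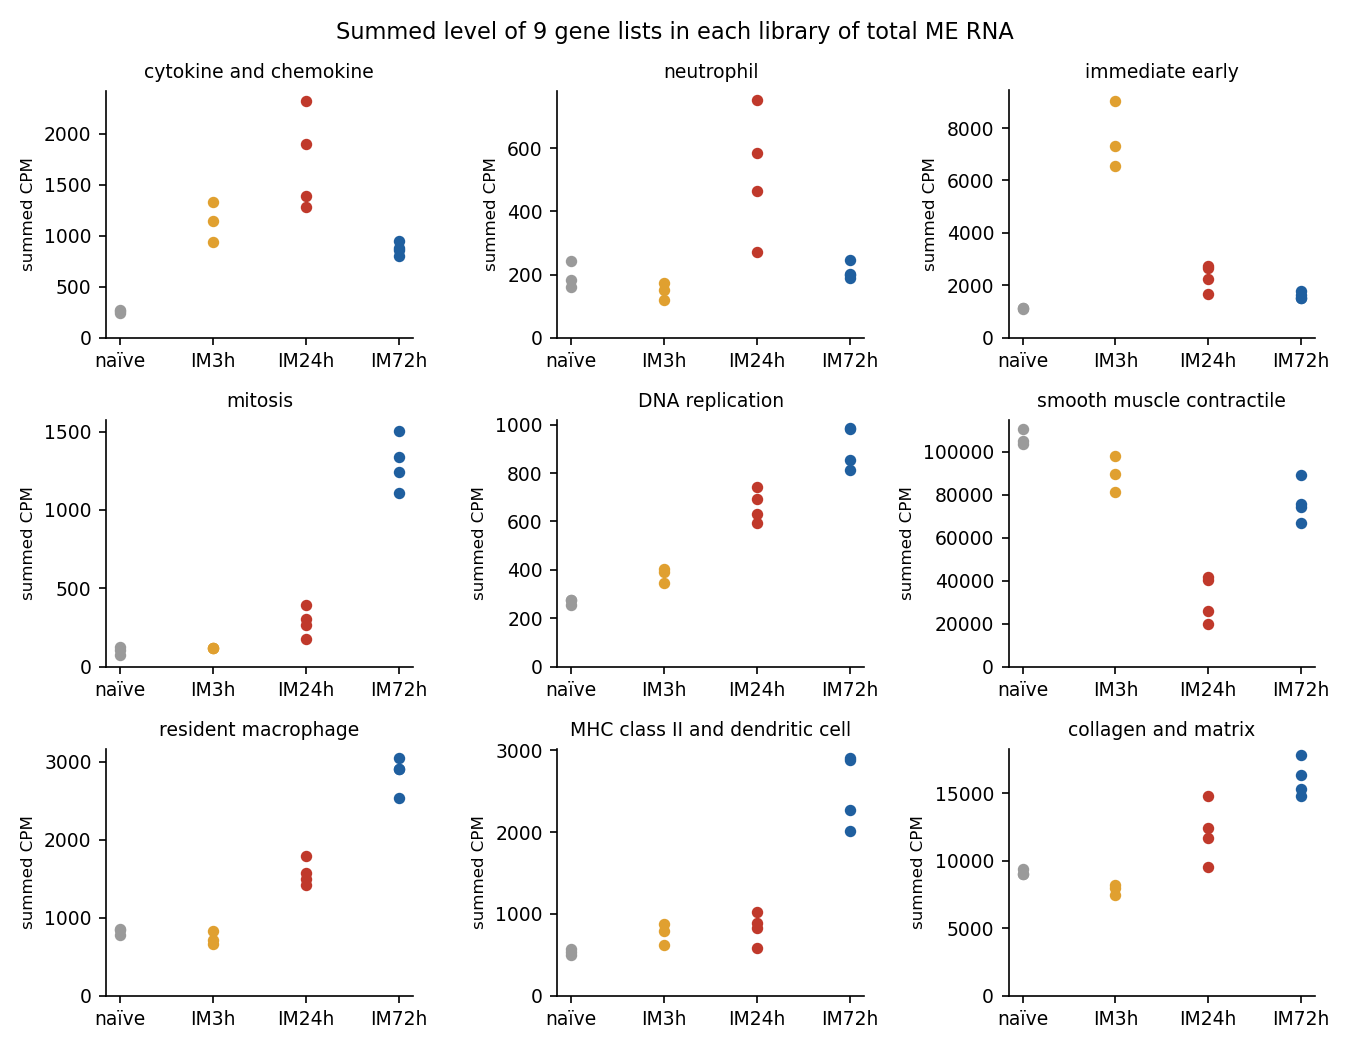
Summed CPM of 9 gene lists (y axes from 0) in each library of total *ME* RNA, by group (x axis). Cytokine sums lie at 1286 to 2323 CPM at IM24h and 799 to 952 CPM at IM72h, mitosis sums are highest at IM72h, and smooth muscle sums are lowest at IM24h; naïve and IM3h mice carry another Cre driver.

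Cytokine and chemokine genes had a lower summed level at IM72h. Of 33 tested (41 listed), 16 fell and 6 rose (1 higher and 15 lower with the reference genes, 7 and 12 unscaled), with a median of -1.24 (-1.42 after the GC and length correction, -1.45 with the reference genes, -0.81 unscaled). Sums were 2323, 1900, 1286 and 1390 CPM at IM24h and 952, 866, 799 and 878 CPM at IM72h, where naïve libraries held 244 to 270.4 CPM and IM3h libraries 941 to 1337 CPM. The time points did not overlap, and IM72h remained above naïve.

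Interleukins came first. *Il1b* was at 97.6, 43.7, 11.2 and 24.7 CPM at IM24h and 7.31, 9.51, 4.24 and 2.74 CPM at IM72h (log2 fold change -2.89, SE 0.61, edgeR adjusted p = 0.00356), and *Il6* was at 13.8, 7.59, 4.01 and 6.45 CPM at IM24h and 1.44, 0.559, 0.737 and 1.19 CPM at IM72h (log2 fold change -3.02, SE 0.50, edgeR adjusted p = 8.44e-04). Both were highest in IM24h library 1 and fell in every IM72h library below the lowest IM24h library. The neutrophil-attracting chemokines *Cxcl1*, *Cxcl2* and *Cxcl3* fell most, with log2 fold changes of -3.39, -4.71 and -4.27. *Cxcl2* was at 143, 61.8, 16 and 29.3 CPM at IM24h and 4.74, 2.08, 2.3 and 0.549 CPM at IM72h, with 2.14, 0 and 0 CPM in naïve libraries. *Ccl2*, the ligand of CCR2, was at 653, 678, 351 and 229.9 CPM at IM24h and 115, 62.9, 48.5 and 85.7 CPM at IM72h (log2 fold change -2.61, SE 0.37, edgeR adjusted p = 3.70e-04). Its IM72h levels remained far from the 5.34, 0.801 and 0.9003 CPM of naïve libraries. Among the 6 higher genes were *Cxcl14*, a chemokine made at rest, at 10.7, 16.4, 13 and 19.9 CPM at IM24h and 42.1, 47.5, 52 and 47.7 CPM at IM72h (log2 fold change 1.66, SE 0.20, edgeR adjusted p = 1.50e-04), with 79.8, 99.6 and 75.2 CPM in naïve libraries, and *Ccl8*, a monocyte attractant of macrophages (2.43, adjusted p = 0.0314), whose IM24h libraries ranged from 0.759 to 38.0 CPM and whose call was lost without 1 library (up to 0.0821) and with the reference genes (0.207).

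Of the receptors and feedback genes of these signals, 14 of 32 tested (33 listed) were lower, 3 higher and 15 not called. With the reference genes 1 was higher and 12 lower, and unscaled 6 and 6. The median was -0.63 (-0.80 after the GC and length correction, -0.21 unscaled). Without IM72h library 3 the count of lower genes was 9. *Il1r1*, the receptor for interleukin 1, was at 101, 77.3, 79.9 and 48.5 CPM at IM24h and 18, 29.7, 13.9 and 16.1 CPM at IM72h (log2 fold change -1.98, SE 0.28, edgeR adjusted p = 3.27e-04), so the IM72h libraries lay around the naïve 16.6, 20.02 and 15.2 CPM. *Ptgs2*, the prostaglandin-forming cyclooxygenase 2 known to suppress gut motility in ileus, was at 161, 85.5, 154 and 50.5 CPM at IM24h and 31.5, 18.6, 19.3 and 23.3 CPM at IM72h (log2 fold change -2.29, SE 0.34, edgeR adjusted p = 5.03e-04). *Nlrp3*, the inflammasome sensor, fell by 2.24. For the interleukin 6 receptors, *Il6ra* fell by 0.79 (adjusted p = 0.0106, but 0.219 unscaled) and the shared subunit *Il6st* did not pass (-0.24, adjusted p = 0.283). *Vcam1*, the adhesion molecule of endothelium, was higher (0.81, adjusted p = 0.00156).

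Immediate early genes, transcription factors and phosphatases induced within minutes of a stimulus, were lower in 13 and higher in 2 of 28 tested (29 listed; 1 higher and 13 lower with the reference genes, 4 and 10 unscaled; median -0.62, -0.84 after the GC and length correction). *Egr1* was at 71.5, 95.5, 88 and 63.8 CPM at IM24h and 13.1, 18.5, 20.9 and 16.4 CPM at IM72h (log2 fold change -2.21, SE 0.19, edgeR adjusted p = 2.73e-05), after 618, 374 and 553 CPM at IM3h and 36.5, 19 and 20.4 CPM in naïve libraries. *Fos* and *Jun*, partners in AP-1, fell by 1.52 and 1.19, *Atf3* by 2.44 and the phosphatase *Dusp5* by 2.63. None of the 5 genes overlapped between groups. The higher genes were *Dusp6* (0.77, adjusted p = 0.0213) and *Jund* (0.62, adjusted p = 0.0212), and both overlapped. Leaving out 1 library raised their adjusted p to as much as 0.0656 (without IM24h library 1, IM72h library 1 or IM72h library 4 the call of *Dusp6* was lost) and 0.0732 (without IM24h library 1, IM72h library 1 or IM72h library 3). *Jund* turned to -0.23 after the GC and length correction (adjusted p = 0.378).

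**Figure D5:**
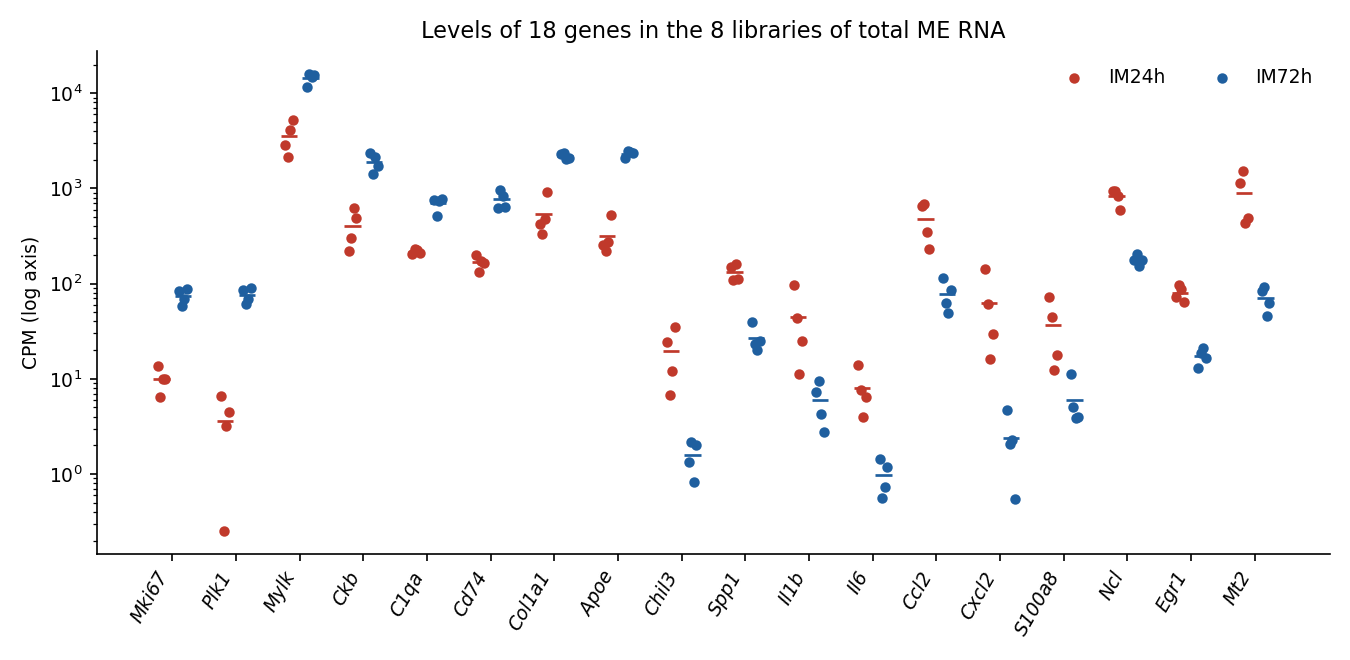
CPM (log axis) of 18 genes in each of the 8 libraries, IM24h and IM72h side by side, with the group mean as a bar. Mitotic genes such as *Mki67* are higher at IM72h with no overlap, and *Il1b*, *Cxcl2*, *Chil3* and *Ncl* are lower with no overlap.

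Interferon-induced genes were more often higher than lower. Of 33 tested, 15 rose and 2 fell (8 higher and 3 lower with the reference genes, 20 and 2 unscaled), at a median of 0.64 (0.53 after the GC and length correction, with 12 higher and 3 lower). *Isg15*, a ubiquitin-like modifier, was at 14.3, 14.8, 8.6 and 12 CPM at IM24h and 63.4, 39, 48.3 and 32.6 CPM at IM72h (log2 fold change 1.88, SE 0.25, edgeR adjusted p = 2.36e-04), and *Ifit1*, an RNA-binding effector, at 10.8, 15.2, 6.36 and 11.9 CPM at IM24h and 63.4, 35.9, 43.6 and 32.2 CPM at IM72h (log2 fold change 1.98, SE 0.29, edgeR adjusted p = 4.07e-04). Both were above the naïve range of 4.27 to 15.5 CPM in each IM72h library. *Ifi44* rose by 1.72. The 2 lower genes were *Ifit2*, a relative of *Ifit1*, at 7.03, 5.19, 13.6 and 9.04 CPM at IM24h and 1.24, 1.68, 1.2 and 0.732 CPM at IM72h (log2 fold change -2.83, SE 0.42, edgeR adjusted p = 4.89e-04), and *Ifih1*, the RNA sensor MDA5, with -1.28. *Ifit1* and *Ifit2* therefore differed in direction, each without overlap.

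Of 20 markers of eosinophils, mast cells and type 2 immunity, 5 were abundant enough to test, and those with higher values passed the filter through IM72h, where they are high, so their values are a description. *Siglecf*, the lectin of eosinophils, was at 0, 0, 0 and 0.143 CPM at IM24h and 1.34, 1.6, 1.47 and 1.65 CPM at IM72h. At IM24h each library had under 3 counts, so the gene was at least 4.03-fold higher at IM72h. *Il1rl1*, the receptor for interleukin 33, was at 1.59, 0.886, 0.943 and 0.143 CPM at IM24h and 4.74, 3.76, 4.33 and 4.76 CPM at IM72h, and *Gata3*, the type 2 transcription factor, at 0.453, 0.127, 0.236 and 1.86 CPM at IM24h and 3.61, 1.997, 3.87 and 4.21 CPM at IM72h.

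Matrix genes changed in both directions. Of 52 tested, 20 rose and 8 fell (13 higher and 5 lower with the reference genes, 33 and 4 unscaled), at a median of 0.31 (0.24 after the GC and length correction, 0.09 with the reference genes). The lower count was 4 without IM24h library 1, IM72h library 3 or IM72h library 4 and 5 without IM72h library 1 or 2, and the median was 0.47 without IM24h library 4. *Col1a1*, a chain of fibrillar collagen I, was at 418, 332, 479.96 and 914 CPM at IM24h and 2319, 2379, 2040.2 and 2062 CPM at IM72h (log2 fold change 2.04, SE 0.28, edgeR adjusted p = 3.11e-04). Each IM72h library stood above each IM24h library and above the naïve 598, 535 and 551 CPM. The partner chain *Col1a2* did not pass (0.27, adjusted p = 0.292, but 0.0124 unscaled). *Col8a2* rose by 2.27, whereas *Col3a1* (-0.24, adjusted p = 0.586) and fibronectin *Fn1* (-0.44, adjusted p = 0.101) did not pass. Of the genes called lower, *Tnc*, tenascin C, was at 1163, 1094, 1121 and 585 CPM at IM24h and 441, 454, 394 and 426 CPM at IM72h (log2 fold change -1.21, SE 0.21, edgeR adjusted p = 0.00109), *Vcan*, versican, fell by 1.27 and *Thbs1* by 2.52.

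Of 27 genes of matrix proteases and the plasminogen system, 9 fell and 3 rose (2 higher and 10 lower with the reference genes, 7 and 6 unscaled; median -0.11, -0.38 after the GC and length correction with 9 lower and 2 higher, but 0.27 unscaled). The median was -0.02 without IM24h library 3, between -0.34 and -0.20 without another IM24h library and -0.42 without IM72h library 1. *Mmp3*, stromelysin, was at 81, 169.7, 77.5 and 30.4 CPM at IM24h and 10.8, 8.79, 9.21 and 8.5 CPM at IM72h (log2 fold change -3.27, SE 0.42, edgeR adjusted p = 2.24e-04). Each IM72h library lay below each IM24h library, and the naïve libraries held 1.22, 0.534 and 2.1 CPM. *Mmp14*, the membrane-bound collagenase, went the opposite way, at 118, 182.5, 113 and 92.4 CPM at IM24h and 662, 378, 475 and 459 CPM at IM72h (log2 fold change 1.96, SE 0.24, edgeR adjusted p = 1.54e-04). *Timp1*, an inhibitor of these proteases, fell by 1.23 with overlapping groups (adjusted p = 0.0116, and 0.0692 unscaled).

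Among genes of the TGF-beta family and of fibroblast activation, 4 rose and 5 fell of 27 tested (29 listed; 14.8% and 18.5%; 3 higher and 6 lower with the reference genes, 9 and 4 unscaled), which is at or under the background, and after the GC and length correction 6 did each. Without IM24h library 4 the higher count was 7. *Bmp4*, a ligand of muscle and mesenchyme, was at 16.5, 18.9, 24.7 and 22.4 CPM at IM24h and 196, 113, 213 and 219 CPM at IM72h (log2 fold change 3.17, SE 0.23, edgeR adjusted p = 1.55e-05), and its antagonist *Grem1* was at 3028, 2671, 2066 and 1700.3 CPM at IM24h and 711, 879, 552 and 548 CPM at IM72h (log2 fold change -1.81, SE 0.23, edgeR adjusted p = 1.78e-04). Ligand and antagonist thus moved in opposite directions with no overlap in either. *Ltbp3*, which stores latent TGF-beta, rose by 1.90, the activin subunit *Inhba* fell by 1.68 and the transcription factor *Runx1* by 1.92.

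Genes of enteric glia, the support cells of the plexus, were higher in 7 and lower in 2 of 23 tested (24 listed; 3 higher and 1 lower with the reference genes, 11 and 0 unscaled; median 0.32, 0.31 after the GC and length correction, 0.08 with the reference genes). The list's sum was 487, 486, 446 and 605 CPM and 861, 758, 939 and 907 CPM, beside 784 to 837 CPM in naïve libraries. *S100b*, their calcium-binding protein, was at 4.76, 13.4, 8.37 and 15.3 CPM at IM24h and 23.1, 24, 30.8 and 31.1 CPM at IM72h (log2 fold change 1.38, SE 0.32, edgeR adjusted p = 0.00557; 0.0868 with the reference genes), with no overlap between groups. *Sox10*, the transcription factor whose promoter drives the Cre here, did not pass (87.5, 34.4, 47.6 and 87.8 CPM at IM24h and 91.8, 40.9, 170.1 and 124 CPM at IM72h; log2 fold change 0.73, SE 0.41, edgeR adjusted p = 0.181). *Sox2*, a stem cell factor, was lower (-1.84, adjusted p = 0.0179, up to 0.0569 without 1 library).

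Genes of reactive glia were mostly lower. Of 16 tested (17 listed), 10 fell and 1 rose (1 higher and 8 lower with the reference genes, 1 and 4 unscaled; median -0.88, -0.83 after the GC and length correction, -0.42 unscaled). *Mt2* and *Mt1*, metal-binding metallothioneins, were the largest falls. *Mt2* was at 1132, 1531, 431 and 490.2 CPM at IM24h and 84, 92.6, 46.2 and 62.4 CPM at IM72h (log2 fold change -3.65, SE 0.43, edgeR adjusted p = 1.25e-04), after 2631, 2819 and 2234 CPM at IM3h. *Lcn2*, an iron-sequestering protein that neutrophils also make, fell by 1.68 and *Vim*, a filament shared with fibroblasts and leukocytes, by 1.07 (adjusted p = 0.0549 unscaled). *Nes*, the filament nestin, overlapped (-0.58, adjusted p = 0.0334, up to 0.0954 without 1 library). *Gfap*, the glial filament, was the 1 gene called higher, at 17.8, 17.3, 13.3 and 7.74 CPM at IM24h and 28.7, 24.8, 27.9 and 30.8 CPM at IM72h (log2 fold change 0.99, SE 0.24, edgeR adjusted p = 0.0081), and that call was lost after the GC and length correction (adjusted p = 0.0789).

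The copy used here of the study's list of acute enteric gliosis holds 242 genes and may lack members of the full list; 214 were tested. It was chosen on glial RiboTag libraries of this series after the same surgery, so it is not independent evidence of a direction. In total *ME* RNA 96 of its genes fell and 23 rose from IM24h to IM72h (44.9% and 10.7%; 9 higher and 90 lower with the reference genes, 43 and 50 unscaled), at a median of -0.57 (-0.74 after the GC and length correction, -0.14 unscaled). *Mt2* and *Cxcl1* were among its largest falls and *Hspb6*, given above with the muscle genes, among its largest rises.

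Neuronal genes were lower in 7 and higher in 3 of 32 tested (21.9% and 9.38%, the first near the background; 33 listed; 2 higher and 7 lower with the reference genes, 8 and 1 unscaled; median -0.20, -0.31 after the GC and length correction with 8 lower and none higher, but 0.27 unscaled); 5 were higher without IM24h library 3. *Vip*, the relaxing neuropeptide of inhibitory motor neurons, was at 336, 276, 294 and 182.1 CPM at IM24h and 71.1, 89.3, 58.5 and 64.5 CPM at IM72h (log2 fold change -1.94, SE 0.21, edgeR adjusted p = 8.00e-05). It had been 56, 55 and 49.8 CPM in naïve libraries, so each IM72h library was closer to naïve than any at IM24h. The peptide *Gal* (galanin) fell by 0.94 and *Nos1*, the synthase for nitric oxide in the same neurons, by 1.01; *Nos1* was at 66.7, 59.6, 64.8 and 97.1 CPM at IM24h and 33.5, 47.2, 28.1 and 34.2 CPM at IM72h. Unscaled, the adjusted p of *Gal* was 0.136 and that of *Nos1* 0.0835. *Uchl1*, the pan-neuronal PGP9.5, was higher (1.14, adjusted p = 0.00337) and the RNA-binding HuD gene *Elavl4* lower (-0.51, adjusted p = 0.0164), and both calls were lost after the GC and length correction (0.0835 and 0.514). *Tubb3* did not pass (0.11, adjusted p = 0.734).

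Genes of the nucleolus, where ribosomes are assembled, were mostly lower. Of 30 tested, 21 fell and 1 rose (70% and 3.33%; 0 higher and 19 lower with the reference genes, 3 and 12 unscaled), at a median of -1.01 (-1.07 after the GC and length correction with 23 lower, -1.20 with the reference genes, -0.56 unscaled). Sums were 3235, 2997, 2723 and 2026 CPM at IM24h and 1408, 1469, 1312 and 1400 CPM at IM72h, beside 1534 to 1595 CPM in naïve and 4091 to 4790 CPM in IM3h libraries. *Ncl*, nucleolin, was at 929, 933, 841 and 586 CPM at IM24h and 176, 204, 152 and 176 CPM at IM72h (log2 fold change -2.22, SE 0.18, edgeR adjusted p = 2.08e-05). Every IM72h library lay below the naïve 495, 533 and 485 CPM. *Ddx21*, a helicase of ribosomal RNA processing, was at 337, 357, 285 and 223 CPM at IM24h and 71.3, 68.6, 62 and 62.1 CPM at IM72h (log2 fold change -2.19, SE 0.17, edgeR adjusted p = 1.72e-05), and *Noc2l* fell by 2.54. *Nop56*, a core protein of small nucleolar RNPs, was the 1 gene called higher (0.63, adjusted p = 0.0486), lost without 1 library (up to 0.0991) and after the correction (0.0706), and the methyltransferase *Fbl* of the same particles had a log2 fold change of -0.41 (adjusted p = 0.0258), a call lost with the reference genes and without IM24h library 2 or any 1 IM72h library (up to 0.0915), with its sign turned unscaled (0.04).

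Chaperones of the endoplasmic reticulum fell as well, with 12 of 23 tested genes of the stress list (24 listed) lower and 2 higher (1 higher and 10 lower with the reference genes, 4 and 1 unscaled; median -0.45, -0.51 after the GC and length correction with 11 lower and 1 higher, 0.00 unscaled). *Hspa5*, the chaperone BiP, was at 1346, 1109, 1139 and 813 CPM at IM24h and 579, 595, 599 and 626 CPM at IM72h (log2 fold change -0.88, SE 0.16, edgeR adjusted p = 0.00169), above the naïve 349.7, 276 and 270.4 CPM at both times. *Pdia4*, a disulphide isomerase, fell by 2.58 and *Hsp90b1* by 1.0 on the log2 scale; unscaled, the adjusted p of *Hspa5* was 0.133 and that of *Hsp90b1* 0.0617. *Atf4*, the factor of the integrated stress response, was higher (0.75, adjusted p = 0.0165), and this was lost after the GC and length correction (0.252) and without IM24h library 1 or IM72h library 1 (up to 0.052); *Ddit3* did not pass (0.23, adjusted p = 0.323).

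Of 78 ribosomal proteins of the cytosol, 23 were higher, 6 lower and 49 not called (median 0.27), and of 108 nuclear genes of the respiratory chain 42 were higher, 7 lower and 59 not called (median 0.35). The ribosomal proteins gave 8 higher and 3 lower with the reference genes, 47 and 2 unscaled, with medians of 0.04 and 0.72, and the respiratory chain 12 higher and 5 lower with the reference genes, 61 and 3 unscaled, with medians of 0.07 and 0.82. Without IM72h library 1 the ribosomal counts were 14 higher and 3 lower, and without IM72h library 3 the lower count was 2. After the GC and length correction the ribosomal proteins gave 16 in each direction at a median of -0.03, and the respiratory chain 30 higher and 15 lower at 0.13. Transcripts of the mitochondrial genome were lower in 10 and higher in 2 of 32 tested (37 listed; 0 higher and 7 lower with the reference genes, 3 and 5 unscaled; median -0.40, and 9 lower and 3 higher at -0.27 after the correction). Without IM24h library 1 the lower count was 6, and without IM24h library 4 the median turned to 0.10. *mt-Rnr1* was at 10173, 11470, 10150 and 9239.8 CPM at IM24h and 1069, 1106, 899 and 835 CPM at IM72h (log2 fold change -3.39, SE 0.17, edgeR adjusted p = 2.82e-06). *mt-Rnr2* fell by 3.49 and the nuclear-retained *Malat1*, another abundant RNA, by 2.69. *mt-Rnr1* stood at 19349, 30886 and 21695 CPM in naïve and 32570, 34941 and 34707 CPM in IM3h libraries, so IM72h was lowest of all.

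Many of the largest changes of single genes were in processed pseudogenes, copies of spliced mRNAs whose reads cannot be told from the parent gene with certainty. Of 596 tested, 262 (44%) were lower and 26 (4.36%) higher, at a median of -1.13, beside 18.9% lower and 20.2% higher of 13620 protein-coding genes. *Rpl17-ps3* was at 98.4, 106, 184 and 18.2 CPM at IM24h and at 0, 0.24, 0 and 0 CPM at IM72h, at least 369-fold lower. Of protein-coding genes with small p-values, *Slc35f1*, a transporter-like membrane protein, was at 6.01, 4.18, 4.12 and 5.31 CPM at IM24h and 53.6, 52.7, 50.02 and 57.4 CPM at IM72h (log2 fold change 3.44, SE 0.18, edgeR adjusted p = 2.96e-06). *Rapgef1*, an exchange factor for small GTPases, was at 54.1, 47.6, 50.1 and 45.3 CPM at IM24h and 200.7, 187, 226 and 233 CPM at IM72h (log2 fold change 2.10, SE 0.13, edgeR adjusted p = 9.50e-06). In *Egfl8*, levels were 0 CPM in 3 IM24h libraries and 1.86 CPM in the other, then 37, 26.8, 28.6 and 30.1 CPM at IM72h. The gene passed the filter through IM72h, where it is high, and IM24h library 4 alone sets its level at IM24h, so its fitted log2 fold change of 6.15 (5.64 to 11.24 over the alternatives run) is a description.

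The remaining lists are given by their counts. Endothelium held 2 higher of 21, lymphocytes 2 higher and 1 lower of 16, glycolysis 7 and 7 of 26, synthesis of cholesterol and fatty acids 5 and 4 of 26, the circadian clock 1 and 5 of 19, adrenergic receptors 2 and 0 of 5, and pancreatic acinar and erythrocyte markers 1 and 0 each of 13 and 5. After the GC and length correction these were 2 higher for endothelium, 2 and 0 for lymphocytes, 4 and 7 for glycolysis, 5 and 5 for lipid synthesis, 2 and 4 for the clock, none for adrenergic receptors, 1 and 0 for acinar and 0 and 1 for erythrocyte markers. Unscaled, endothelium gave 7 and 0, glycolysis 10 and 0, lipid synthesis 7 and 0, the clock 4 and 1 and adrenergic receptors 4 and 0. With the reference genes glycolysis gave 2 and 5 and adrenergic receptors none. Without IM72h library 3 or 4 the lower count was 3 for glycolysis and for the clock, and without IM24h library 1 or IM72h library 2 it was 4 for glycolysis. The higher count was 4 for endothelium without IM24h library 1, for adrenergic receptors without IM24h library 2 and for lymphocytes without any 1 IM24h library. Adipocyte markers, which come with attached mesentery, held 6 higher and 1 lower of 15 (sums of 339 to 537 CPM at IM24h and 575 to 948 CPM at IM72h). They held 4 higher after the correction, 4 with the reference genes and 10 unscaled. Markers of mesothelium, the outer lining of the gut, held 1 higher of 14 (1 after the correction), and 9 higher without IM24h library 4. Summed mesothelial levels were 92.9, 32.6, 72.6 and 313 CPM at IM24h and 157, 261, 368 and 249.4 CPM at IM72h, with 417 to 429 CPM in naïve libraries.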

How the data were processed

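Total RNA of the *ME* was sequenced as 3′ tag libraries (QuantSeq). Per the labels and the study's methods, the authors trimmed reads with cutadapt, aligned them to mm10 with STAR and quantified genes on an Ensembl annotation in Partek Flow. The deposited gene table of total *ME* RNA holds estimated counts, not normalised, of 24601 genes in 14 libraries (29.3% of values are not whole numbers at a tolerance of 1e-06), and each gene in it has a total of at least 10. Its library names match no sample title, so groups were taken from the treatment entry that the table gives for each library, and libraries were numbered within a group in the order of their names.

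Estimated counts were rounded to whole numbers. The 4 IM24h and 4 IM72h libraries were fitted with edgeR 4.0.16 (R 4.3.3; filterByExpr, TMM, glmQLFit and glmQLFTest, two-sided, contrast IM72h minus IM24h, no covariate), with Benjamini-Hochberg adjustment over all 16281 genes tested; every adjusted p given for a gene comes from this test or, where stated, an alternative of it. Levels are counts per 1000000 (CPM) of the TMM-scaled library size, on which floors are 3 counts per library. Such intervals and floors cover counting error only. Technical measures were compared by exact permutation tests. Gene class, GC content and transcript length came from GENCODE vM21, in which 16050 of the genes tested matched by name once. For the correction, a loess surface (span 0.5) on GC content and log length together was fitted in each library. It described the deviation of a gene from its mean log level, was fitted on expressed protein-coding genes and was subtracted as an offset in the edgeR fit. Promoters came from RefSeq. The gene table of tagged ribosomes and the authors' transcript tables of those libraries were not used here; no per-sample column was left unmapped. A few genes of the lists are not reported here by name.

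The members and gene lists were chosen with earlier results of these data known, and the text names genes by rule: in each list the first 3 as written and the 3 largest rises and falls among genes called, the 8 largest rises and falls and the 5 smallest p-values in each direction over all genes, and the 10 most abundant. *Il1b*, *Ncl* and the other genes named are drawn from that pool, except *H2-Eb1* and *Col1a2*, chosen after their values were seen. Alternatives covered scaling, filters, depth, the test (DESeq2 1.42.0), the libraries in the fit, each library left out, and GC content with length.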

Additional observations from a re-analysis of the deposited data

Results flagged for a closer look

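In groups of 4 libraries, a library was marked where its gap to the nearest other exceeded 0.829 of the group's range. Of 404 groups examined (gene levels, list sums and measures of the libraries such as totals), 18 were marked, which is 4.46%. By chance alone about 1 in 20 (20.2) would be marked. At IM24h, library 4 was marked most often. It was the highest for *Cx3cr1* (48.5 CPM, others 25.5 to 28.7), *Cbr2* (18.6 CPM, others 0.34 to 1.27), *Fcrls* (8.46 CPM, others 1.93 to 2.28), *Ccl8* (38.0 CPM, others 0.759 to 5.89), *C3* (375 CPM, others 140 to 158), *Siglecf* (0.143 CPM, others 0) and *Egfl8* (1.86 CPM, others 0). It was the lowest for *Dusp5* (33.4 CPM, others 82.1 to 91.3) and *Tnc* (585 CPM, others 1090 to 1160). For each of these genes library 4 was the IM24h library nearest to IM72h.

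Also at IM24h, library 1 was the highest for *Pf4* (208 CPM, others 105 to 108) and *Noc2l* (52.2 CPM, others 32.7 to 34.9). At IM72h, library 2 was the highest for *Actg2* (3920 CPM, others 2020 to 2310) and *Rpl17-ps3* (0.24 CPM, others 0) and the lowest for *C1qa* (508 CPM, others 736 to 775) and the summed interstitial cell list (766 CPM, others 839 to 852). Library 1 at IM72h was the highest for *S100a8* (11.3 CPM, others 3.87 to 5.11), *Cxcl3* (1.24 CPM, others 0.183 to 0.24) and the summed list of matrix proteases and the plasminogen system (2720 CPM, others 2110 to 2130).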

How the results depend on the processing

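As reported, 3024 genes were higher and 3248 lower at IM72h. Library scaling moved these counts most: unscaled counts gave 5418 and 1332, and the reference genes *Actb*, *Hsp90ab1* and *Rplp1* gave 1245 and 2864. With a change over 2-fold also required, 1792 and 1859 genes were called at an adjusted p under 0.05, and 2070 and 2038 at an unadjusted p under 0.05. Leaving out each library gave 2318 to 3602 higher and 2556 to 3564 lower. The GC and length correction gave 2512 and 3141, with 2151 (71.1% of those reported) and 2564 (78.9%) shared. DESeq2's test gave 3647 and 3967 of 24504 genes. The alternatives were followed for 157 genes, those named and part of those drawn for naming. Of these, 136 were called, of which 91 kept their call in each alternative run and 2 changed sign in 1 each. *Jund* turned to -0.23 after the GC and length correction and *Fbl* to 0.04 unscaled, and the cause was not tested. No paired analysis was possible because the library names carry no replicate number of the labels. Depth limits rare transcripts: a floor of 3 counts corresponds to 0.376 CPM at IM24h and 0.275 CPM at IM72h.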
